A study of Mus musculus with 9 samples.

Results

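The 8 genes described here encode the peptides of the calcitonin gene-related peptide (CGRP) and adrenomedullin family and the proteins through which they signal. They are Calca, Calcb and Adm for the ligands, Calcrl for the receptor, Ramp1, Ramp2 and Ramp3 for its accessory proteins, and Crcp for an intracellular component. They were selected by symbol from a table of 55401 genes, and all 8 were present and passed the filter on low counts. The choice was made with values of these libraries in view, because Calca had been noted as lower and Adm as higher after spinal cord injury. Those 2 genes are therefore given as values with a fold change and its standard error (SE), and with no test.

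RNA was profiled by Smart-seq2, a method that amplifies full-length cDNA from small inputs, in spinal motoneurons of wild-type mice. Each group had 3 libraries. The SBES libraries came from mice with a spinal cord injury that received synergistic bidirectional electrical stimulation, at 10, 15 and 20 Hz in libraries 1, 2 and 3, so each frequency was sampled by 1 library. The untrained libraries came from mice with the injury and no stimulation, and the sham libraries from mice with neither. Per the labels, mice of all groups were killed at 4 weeks after injury. Neurons filled with a fluorescent tracer, named TRDA, were aspirated from slices through glass electrodes. Age and sex of the mice are not stated in the labels. The titles describe single-cell sequencing and the labels name 3 mice in each group, but they tie no library to a mouse and state no number of neurons per library, so the p-values measure the spread between libraries, part of which may be technical. A difference between SBES libraries cannot be told apart from a difference of frequency.

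CGRP is made from Calca and Calcb. Calca also encodes calcitonin through alternative splicing, and Calcb encodes the closely related beta form of CGRP. Both forms of CGRP are known peptides of spinal motoneurons, where they act at the neuromuscular junction, and of nociceptive sensory neurons. Adm encodes adrenomedullin, a vasodilator peptide whose gene is a textbook target of hypoxia-inducible factors. The 2 kinds of peptide share a receptor, the G protein-coupled calcitonin receptor-like receptor encoded by Calcrl, which does not reach the cell surface or select a ligand without an accessory protein. With RAMP1 it is the CGRP receptor, and with RAMP2 or RAMP3 it is an adrenomedullin receptor. The receptor signals mainly through cyclic AMP, and it is prominent in vascular endothelium together with RAMP2.

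The sequences upstream of Calca and Adm are shown because these are the 2 genes noted for opposite differences after injury. In the deposited table (mm10), Calca lay on the minus strand at chr7:114631478-114636357 and Calcb on the plus strand at chr7:114718643-114723365, 82285 bases apart. Adm lay on the same chromosome at chr7:110627661-110629820, 4001657 bases from Calca. The following are the 250 bases before the RefSeq start site (GRCm38.p6, the assembly called mm10), read 5′ to 3′ on the strand of the gene, from chr7:110627407-110627656 for Adm and chr7:114636358-114636607 for Calca.
Adm: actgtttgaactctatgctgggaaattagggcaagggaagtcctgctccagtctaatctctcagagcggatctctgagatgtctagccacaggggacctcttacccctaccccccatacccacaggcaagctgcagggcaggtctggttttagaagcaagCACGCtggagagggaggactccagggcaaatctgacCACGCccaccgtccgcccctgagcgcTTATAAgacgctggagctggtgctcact
Calca: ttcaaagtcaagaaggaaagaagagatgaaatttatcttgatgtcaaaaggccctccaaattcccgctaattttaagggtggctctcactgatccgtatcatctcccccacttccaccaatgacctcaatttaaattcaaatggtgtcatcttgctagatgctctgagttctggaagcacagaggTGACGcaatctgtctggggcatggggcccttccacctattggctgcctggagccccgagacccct
Capitals in the Adm sequence mark GCGTG, a core of the hypoxia response element, which was found on the opposite strand as CACGC from positions -90 and -54, and TATAA on both strands, whose matches overlap in TTATAA from position -28 (the base before the start is -1). The capitals in the Calca sequence mark TGACG, a partial cyclic AMP response site, from position -65. Letters were searched on both strands of windows of 300 bases, 250 before and 50 after the start, which were matched for 5 of the 8 genes. GCGTG was also found in the window of Ramp3, from positions -219 and -65, and in that of Calcrl, after the start. TGACG was also found in the window of Ramp1, after the start. Of 32851 such windows of the genome, 32.4% held GCGTG, 24.9% held TATAA and 20.8% held TGACG, so each of these matches is common. ACGTG, the other hypoxia core, was held by 19.6% of windows and the full site TGACGTCA by 1.79%, and neither was present in the 5 windows.

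Total counts ran from 11821145 to 17675948 per library. Transcripts of motor neurons were present in every library, with at least 1 count for each of 12 markers, and their summed level lay between 464 and 1272 CPM (counts scaled to the library total and by TMM). The 8 oligodendrocyte markers summed to between 38510 and 109278 CPM, so the libraries also held abundant transcripts of cells other than motoneurons. The libraries numbered 1 stood apart in every group: Malat1, a nuclear noncoding RNA, had 6288 CPM in SBES 1, 15296 CPM in untrained 1 and 20834 CPM in sham 1, against 466 to 1489 CPM in the other 6. Mitochondrially encoded genes summed to 244469 CPM in SBES 1 and 101412 CPM in sham 1, against 24292 to 54111 CPM in the remaining libraries. The TMM factors were 0.76 in SBES 1 and 0.73 in sham 1, against 1.02 to 1.16 in the remaining libraries. Where a fit of the 6 libraries numbered 2 and 3 changed a call, the value is given beside the result. Shifts of value or direction on leaving out a single library are given for some genes. They stand beside the result or in the section on how the results depend on the processing.

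Levels of the 8 genes are compared with each other as FPKM, which divides counts by exonic length. Ramp1 was the most abundant of them, with a median of 284 FPKM over the 9 libraries and a range of 155 to 416. It ranked first in 8 of the 9 libraries, and in sham 3 it stood below Calca. Calca had a median of 51.1 FPKM with a range of 21.7 to 336, Calcb 39.8 with a range of 27.5 to 132, and Crcp 37.7 with a range of 18.3 to 54.1. These 3 genes exchanged places between libraries and their ranges overlapped. Ramp2 (median 13.8 FPKM, range 7.79 to 25.9) and Adm (median 8.19, range 2.54 to 23.8) followed and also overlapped. Ramp3 had a median of 2.27 FPKM and a range of 0.74 to 8.56. Calcrl was lowest in each of the 9 libraries, with a median of 0.25 FPKM and a range of 0.12 to 0.46, which did not overlap that of Ramp3. The receptor and its main accessory protein thus stood at opposite ends of the order.

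**Figure D1:**
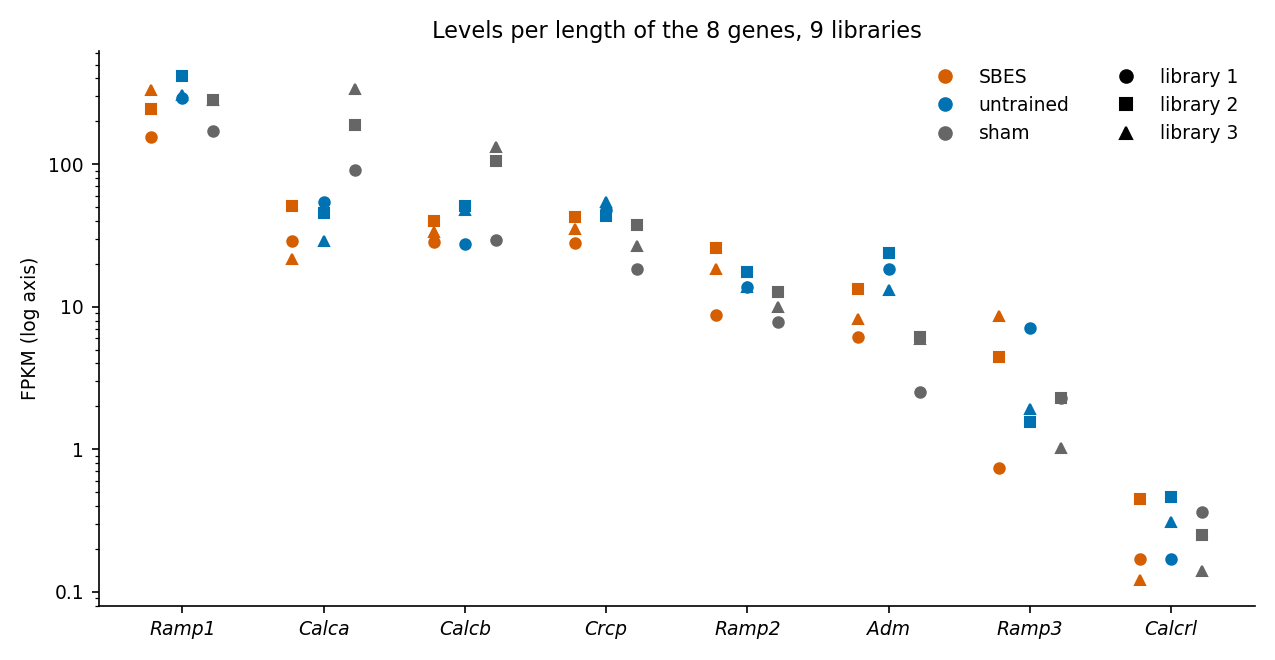
FPKM (log axis) of the 8 genes in the 9 libraries, ordered by their median; colours give the group and symbols the library number. Ramp1 lies between 155 and 416 FPKM and Calcrl between 0.12 and 0.46 FPKM, with the ligand genes in between and Calca of the sham libraries above the other Calca points.

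Calca was lower in all 6 libraries from injured mice than in any sham library. It had 63.7, 78.2 and 35.9 CPM in SBES 1, 2 and 3, 87.3, 66.1 and 44.3 CPM in untrained 1, 2 and 3, and 213, 276 and 546 CPM in sham 1, 2 and 3. The SBES and untrained libraries overlapped, and sham 3 was the highest of all. The means were 59.3 ± 21.5 CPM in SBES, 65.9 ± 21.5 CPM in untrained and 345 ± 177 CPM in sham libraries (SD, n = 3 each). The log2 fold change was -2.39 (SE 0.41) in untrained against sham, a 5.24-fold lower level, and -2.54 (SE 0.41) in SBES against sham, a 5.82-fold lower level. Between SBES and untrained it was -0.15 (SE 0.39). Without sham library 3 the log2 fold change against sham was -1.89 for untrained and -2.04 for SBES libraries. These values are a description of the difference for which the gene was noted. Counts were made per gene, so transcripts for calcitonin and for CGRP, both of which Calca encodes, were not separated.

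The summed motor neuron markers were also lower in untrained than in sham libraries. The sum ran from 624 to 1272 CPM in SBES, from 464 to 782 CPM in untrained and from 1002 to 1131 CPM in sham libraries, and every untrained library stood below every sham library, while SBES overlapped both. Taken singly, 11 of the 12 markers were tested, of which 9 were negative in untrained against sham with a median log2 fold change of -0.38. By edgeR 3 had an unadjusted p under 0.05, beside 4.39% of all genes, and none was called in any comparison. The sums of 10 pan-neuronal markers likewise ran from 6915 to 14028 CPM in SBES, from 7421 to 7865 CPM in untrained and from 9783 to 14332 CPM in sham libraries, with untrained below sham and 9 of 10 markers negative (median -0.52). All 8 oligodendrocyte markers were negative in the same comparison (median -0.55), and edgeR called none of either list. Chat, the acetylcholine-synthesising enzyme, overlapped between groups at 21.5 to 33.8 CPM in SBES, 20.2 to 32.3 CPM in untrained and 19.6 to 34.6 CPM in sham libraries. Slc18a3, of the same list, ran from 34.6 to 105 CPM in untrained and from 46.7 to 135 CPM in sham libraries. Prph ran from 65.8 to 173 CPM in untrained and from 80.0 to 232 CPM in sham libraries. Sham 1 was the lowest sham library for both and stood below untrained 2 and 3. The separation of the sums therefore did not hold for these markers singly. In RNA pooled over an aspirate, fewer cells of a type and less RNA per cell cannot be told apart. Expressed as a percentage of the summed motor neuron markers of the same library, a measure added after the values were seen, Calca reached 7.53%, 12.5% and 2.82% in SBES 1, 2 and 3, 18.8%, 8.45% and 5.77% in untrained, and 18.9%, 27.5% and 48.3% in sham. Untrained 1 and sham 1 came close to each other on this scale, and neither injured group overlapped sham. This separation depended on the markers used. Slc18a3 had 34.6 CPM in untrained 1 and 118 CPM in sham 2, and Prph had 65.8 and 211 CPM. Relative to either of these alone, Calca was slightly higher in untrained 1 than in sham 2. Relative to Chat alone, neither injured group overlapped sham. The mean log2 difference of this percentage was -1.59 in untrained against sham and -2.19 in SBES against sham. The part of motor neuron content in the level of Calca was not tested beyond this.

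Sensory neurons of the peptidergic type also express CGRP. Of their defining markers, Scn10a, a sodium channel, was at 0 counts in all 9 libraries, and Trpv1, the capsaicin receptor, was at 0 in the 6 SBES and untrained libraries and had 2 counts in each of the 3 sham libraries. The 9 markers summed to between 61.3 and 107 CPM in SBES, between 14.0 and 209 CPM in untrained and between 17.1 and 109 CPM in sham libraries. Most of that sum was Tac1, the substance P gene, which spinal interneurons also express, at 56.8 to 103 CPM in SBES, 11.6 to 206 CPM in untrained and 14.8 to 105 CPM in sham libraries. Their part in the level of Calca was not tested.

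Calcb followed Calca on a smaller scale. It had 47.0, 45.7 and 41.6 CPM in SBES libraries, 33.1, 55.4 and 54.9 CPM in untrained libraries, and 50.8, 117 and 161 CPM in sham libraries. The SBES libraries were nearly level, whereas sham 1 stood close to the injured libraries and apart from sham 2 and 3. The means were 44.8 ± 2.82 CPM in SBES, 47.8 ± 12.7 CPM in untrained and 109 ± 55.4 CPM in sham libraries (SD, n = 3 each). In SBES against sham the log2 fold change was -1.29 (SE 0.36, 95% confidence interval -2.06 to -0.52), and edgeR's quasi-likelihood test with Benjamini-Hochberg adjustment over all genes tested did not call it (adjusted p = 0.191). The call depended on the setting: the adjusted p was 0.0372 with DESeq2, 0.000781 with no filter on low counts, 0.046 without sham library 1 and 0.00038 in a fit of the 6 libraries numbered 2 and 3, and it ran from 0.00038 to 0.728 over all 19 alternatives. Against untrained, SBES had a log2 fold change of -0.09 (SE 0.35, interval -0.86 to 0.67, adjusted p = 0.999). The value of untrained against sham, -1.20 (SE 0.35), is a description, because that contrast guided the choice of the genes. Without sham library 3 the log2 fold change was -0.81 in untrained against sham and -0.91 in SBES against sham.

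As a percentage of the summed motor neuron markers Calcb did not separate the groups, with 3.27% to 7.32% in SBES, 7.09% to 7.15% in untrained and 4.50% to 14.2% in sham libraries. The ratio of Calca to Calcb in FPKM was 1.02, 1.28 and 0.647 in SBES libraries, 1.98, 0.895 and 0.605 in untrained libraries, and 3.15, 1.77 and 2.55 in sham libraries. Calca held 63.9% to 75.9% of their joint FPKM in sham libraries, against 39.3% to 56.2% in SBES and 37.7% to 66.4% in untrained libraries. Untrained 1 fell within the sham range on this ratio, and the SBES libraries all lay below it. Since Calca was noted for its low level after injury, the ratio is a description and was not tested. The transcripts of the 2 genes share a longest run of 61 identical bases, and 0.715% of the 50-base words of Calca occur in Calcb, so few positions could have given reads to either gene.

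Adm was higher in every untrained library than in any sham library, and the SBES libraries lay between. It had 13.0, 19.6 and 13.0 CPM in SBES libraries, 28.4, 33.2 and 19.2 CPM in untrained libraries, and 5.67, 8.63 and 9.32 CPM in sham libraries. SBES and untrained libraries overlapped at SBES 2 and untrained 3, and neither group overlapped sham. The means were 15.2 ± 3.80 CPM in SBES, 26.9 ± 7.14 CPM in untrained and 7.87 ± 1.94 CPM in sham libraries (SD, n = 3 each). The log2 fold change was 1.76 (SE 0.30) in untrained against sham, a 3.40-fold higher level, 0.94 (SE 0.30) in SBES against sham, a 1.92-fold higher level, and -0.82 (SE 0.29) in SBES against untrained. None of these 3 values is a test, since Adm was noted on these libraries. Adm overlaps the predicted gene Gm28863 on the opposite strand, which had 0 to 9 counts per library, while Adm had 52 to 597 counts.

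The summed endothelial markers were higher in all SBES libraries, and in untrained 2 and 3, than in any sham library. These 12 markers, all with counts in each group, summed to between 632 and 932 CPM in SBES, between 551 and 788 CPM in untrained and between 355 and 581 CPM in sham libraries, and edgeR called none of them in any comparison. In untrained against sham all 12 had a positive log2 fold change, with a median of 0.64 beside -0.01 for all genes tested, and in SBES against sham 10 of 12 did, with a median of 0.47. By edgeR 6 markers had an unadjusted p under 0.05 in untrained against sham, beside 4.39% of all genes. In SBES against sham 4 markers did, beside 9.22% of all genes. The order of the sums did not hold for each marker singly. Cldn5 overlapped in all groups, at 60.8 to 165 CPM in SBES, 83.7 to 215 CPM in untrained and 91.3 to 142 CPM in sham libraries. Pecam1, at 21 to 158 counts, had 8.02 to 9.77 CPM in SBES, 3.97 to 8.29 CPM in untrained and 1.74 to 5.33 CPM in sham libraries. As a percentage of the summed endothelial markers, also added after the values were seen, Adm reached 2.06%, 2.69% and 1.40% in SBES libraries, 5.16%, 4.22% and 3.08% in untrained libraries, and 1.60%, 1.49% and 2.51% in sham libraries. On this scale untrained libraries did not overlap the others, with a mean log2 difference of 1.16 against sham, and SBES libraries overlapped sham, with a difference of 0.13. The separation of untrained libraries depended on the markers used. Relative to Cldn5 alone, Adm in untrained libraries overlapped SBES and stood above sham. Relative to Pecam1 alone, it overlapped sham and stood above SBES. SBES overlapped sham on both. The part of endothelial content in the level of Adm was not tested beyond this.

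**Figure D2:**
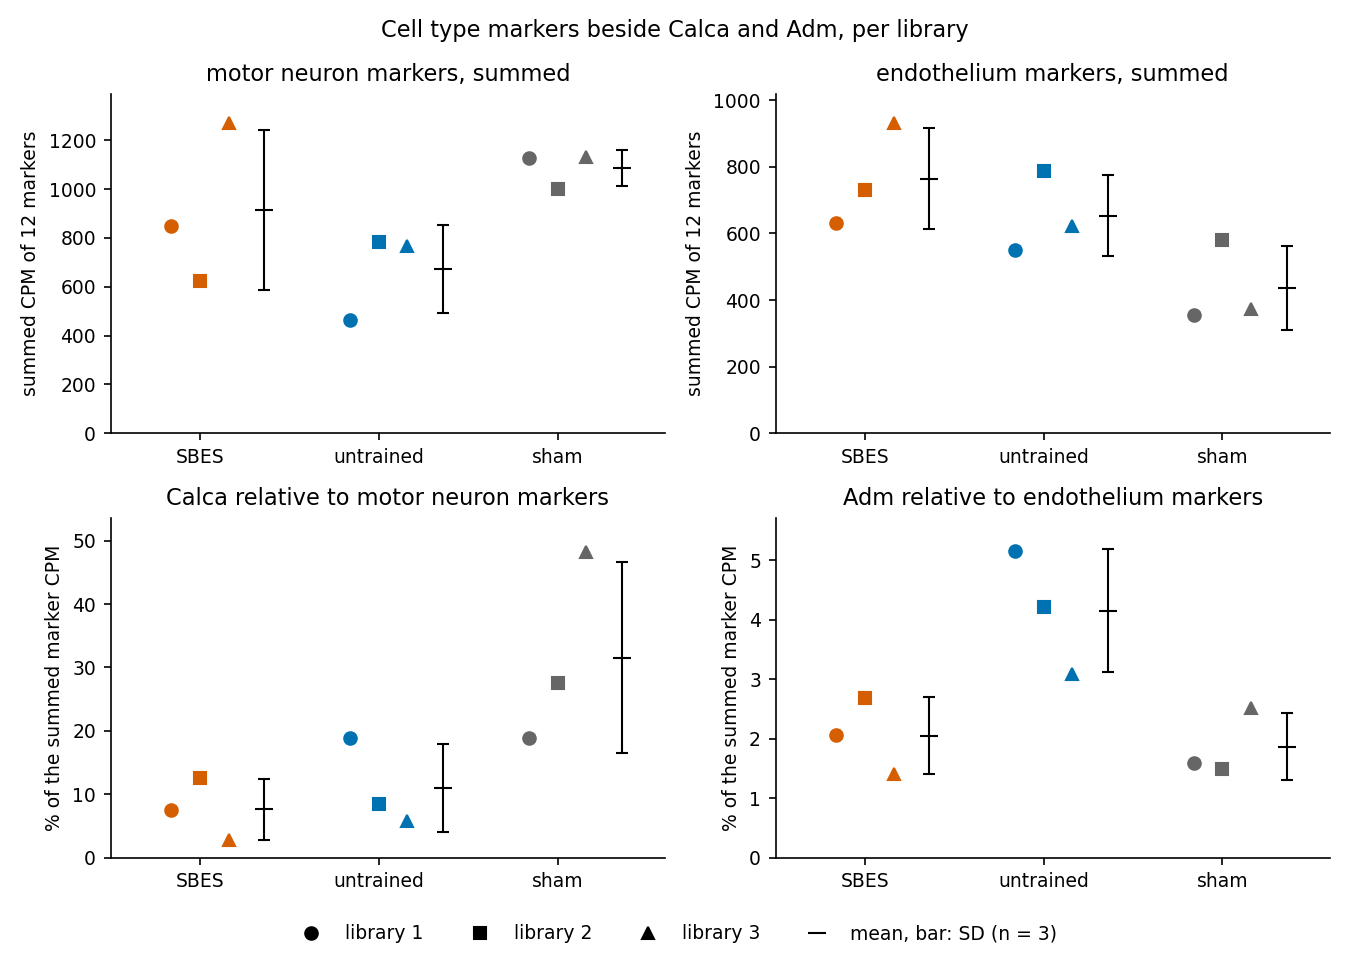
Summed CPM of 12 motor neuron and 12 endothelium markers (top) and Calca and Adm as a percentage of those sums (bottom) in each library, with the mean and SD of 3 libraries. All untrained libraries lie below sham for the motor neuron sum, and on the lower panels Calca is lower in every SBES and untrained library than in sham, while Adm is higher in every untrained library than in sham and SBES overlaps sham.

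The balance between the ligand genes followed from these values. Calca exceeded Adm in FPKM in all 9 libraries, by 4.70, 3.83 and 2.64 times in SBES libraries, 2.95, 1.91 and 2.22 times in untrained libraries, and 36.1, 30.7 and 56.3 times in sham libraries. Sham libraries stood far above both injured groups, which overlapped between SBES 3 and untrained 1. The ratio combines the genes noted for their values and was not tested.

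**Figure D3:**
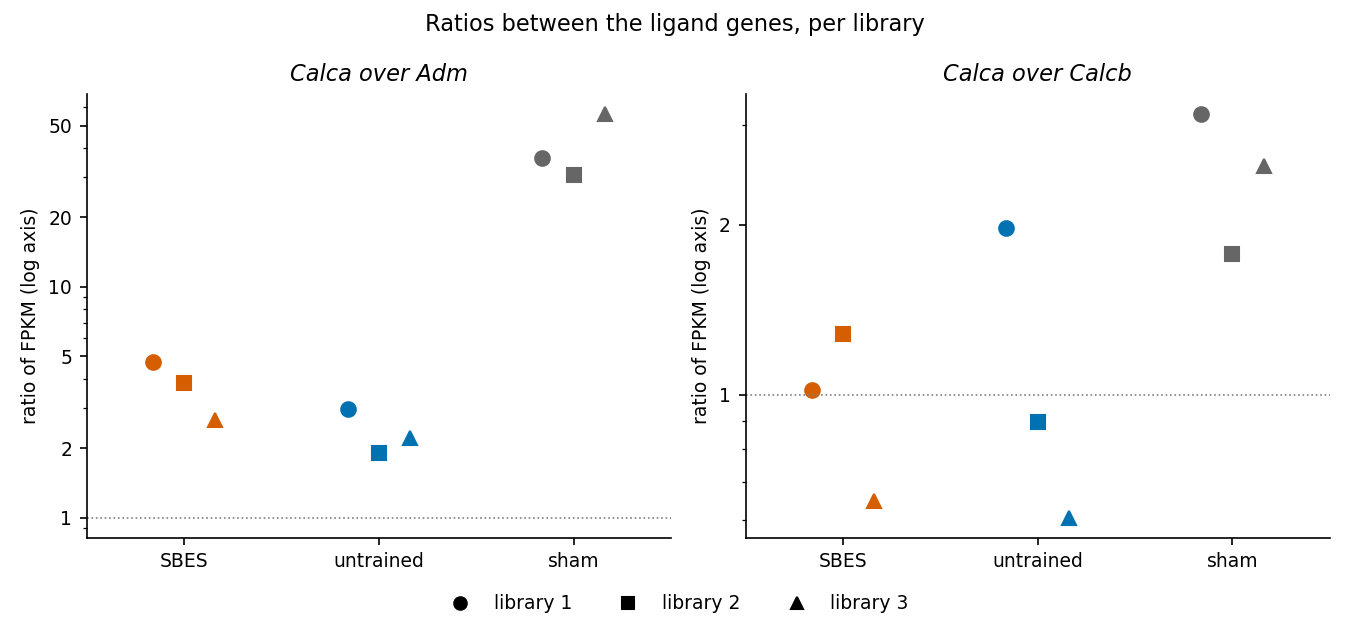
Ratio of Calca to Adm (left) and of Calca to Calcb (right) in FPKM per library, on log axes; dotted lines mark equal levels. The Calca to Adm ratio lies between 30.7 and 56.3 in sham libraries and between 1.91 and 4.70 in the 6 libraries from injured mice.

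Calcrl, the shared receptor, was close to the limit of detection in all groups. It had 10, 29 and 9 counts in SBES libraries, 12, 35 and 23 counts in untrained libraries, and 22, 17 and 12 counts in sham libraries, equal to 0.557 to 2.01 CPM in SBES, 0.793 to 1.95 CPM in untrained and 0.654 to 2.40 CPM in sham libraries. The 3 groups overlapped over nearly their whole range. The log2 fold change was -0.11 in SBES against sham (SE 0.61, interval -1.43 to 1.22, adjusted p = 0.982 by edgeR) and -0.17 in SBES against untrained (SE 0.60, interval -1.47 to 1.12, adjusted p = 0.999). A 2-fold change in either direction lay within these intervals. The direction rested on single libraries: in SBES against sham the value was 0.56 in the fit of the 6 libraries numbered 2 and 3, 0.52 without sham library 1 and 0.26 without SBES library 3, and in SBES against untrained it was 0.20 without SBES library 3 and 0.16 without untrained library 2. The description of untrained against sham was 0.06 (SE 0.60), 0.98 in the 6-library fit, 0.72 without sham library 1 and -0.29 without sham library 3.

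Ramp1, which makes the receptor selective for CGRP, was abundant in every library. It had 616, 674 and 990 CPM in SBES libraries, 838, 1086 and 837 CPM in untrained libraries, and 712, 749 and 821 CPM in sham libraries. SBES held both the lowest library and a library near the top, and it overlapped both other groups. The log2 fold change was -0.0016 in SBES against sham (SE 0.24, interval -0.52 to 0.52, adjusted p = 0.999 by edgeR) and -0.28 in SBES against untrained (SE 0.24, interval -0.80 to 0.25, adjusted p = 0.999). In untrained against sham it was 0.27 (SE 0.24), with every untrained library above every sham library. Ramp1 made up 89.0% to 96.2% of the FPKM of the 3 accessory protein genes in each library, and its FPKM was 475 to 2775 times that of Calcrl.

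Ramp2, the accessory protein of the adrenomedullin receptor, had 38.1, 77.5 and 59.4 CPM in SBES libraries, 43.4, 49.7 and 41.2 CPM in untrained libraries, and 35.4, 36.5 and 31.8 CPM in sham libraries. Every SBES library and every untrained library stood above every sham library, with the widest spread in SBES. The means were 58.3 ± 19.7 CPM in SBES, 44.8 ± 4.41 CPM in untrained and 34.6 ± 2.47 CPM in sham libraries (SD, n = 3 each). In SBES against sham the log2 fold change was 0.76 (SE 0.26, interval 0.20 to 1.31), which edgeR did not call (adjusted p = 0.320). A fit of the 6 libraries numbered 2 and 3 called it, with a log2 fold change of 1.01 (adjusted p = 0.014), and over all 19 alternatives the adjusted p ran from 0.014 to 0.930. The log2 fold change was 0.50 without SBES library 2 and 1.01 without SBES library 1. In SBES against untrained the log2 fold change was 0.38 (SE 0.25, interval -0.17 to 0.93, adjusted p = 0.999), and in untrained against sham, as a description, 0.37 (SE 0.26). As a percentage of the summed endothelial markers Ramp2 overlapped in all 3 groups, with 6.03% to 10.6% in SBES, 6.31% to 7.88% in untrained and 6.29% to 9.99% in sham libraries. Ramp2 overlaps Vps25, a gene on the same strand that had 20 to 103 counts per library, so its reads are uncertain where the 2 genes coincide.

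Ramp3, which also forms an adrenomedullin receptor, varied more between libraries of a group than between groups. It had 1.34, 5.55 and 11.6 CPM in SBES libraries, 9.32, 1.84 and 2.41 CPM in untrained libraries, and 4.36, 2.73 and 1.36 CPM in sham libraries, from 12 to 188 counts. In the SBES group library 1 was low and library 3 high, and in the untrained group library 1 was high. The log2 fold change was 1.19 in SBES against sham (SE 0.80, interval -0.59 to 2.96, adjusted p = 0.733 by edgeR), and 2.09 in the fit of the 6 libraries numbered 2 and 3, which called it (adjusted p = 0.0154). Without SBES library 3 it was 0.36. Over all 19 alternatives of that comparison the adjusted p ran from 0.0154 to 1.000. Against untrained it was 0.48 (SE 0.77, interval -1.24 to 2.19, adjusted p = 0.999), 2.00 in the 6-library fit, 1.55 without untrained library 1 and -0.35 without SBES library 3. In untrained against sham it was 0.71 (SE 0.80), 0.09 in the 6-library fit and -0.33 without untrained library 1. The overlapping gene Gm11978 on the opposite strand had 0 to 4 counts per library.

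Crcp encodes the CGRP receptor component protein, an intracellular protein reported to couple the receptor to its signalling and also a subunit of RNA polymerase III. It had 58.2, 61.8 and 54.4 CPM in SBES libraries, 71.5, 59.0 and 77.7 CPM in untrained libraries, and 39.9, 52.0 and 40.9 CPM in sham libraries. All 6 libraries from injured mice stood above the 3 sham libraries, and SBES overlapped untrained at untrained 2. The log2 fold change was 0.39 in SBES against sham (SE 0.21, interval -0.06 to 0.85, adjusted p = 0.630 by edgeR) and -0.26 in SBES against untrained (SE 0.21, interval -0.71 to 0.20, adjusted p = 0.999). In untrained against sham it was 0.65 (SE 0.21). Of the other subunits of RNA polymerase III, with 12 of 12 tested, 6 were positive in untrained against sham with a median log2 fold change of -0.01, and 2 were positive in SBES against sham with a median of -0.12. EdgeR called none in any comparison, and a difference from Crcp was not tested.

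**Figure D4:**
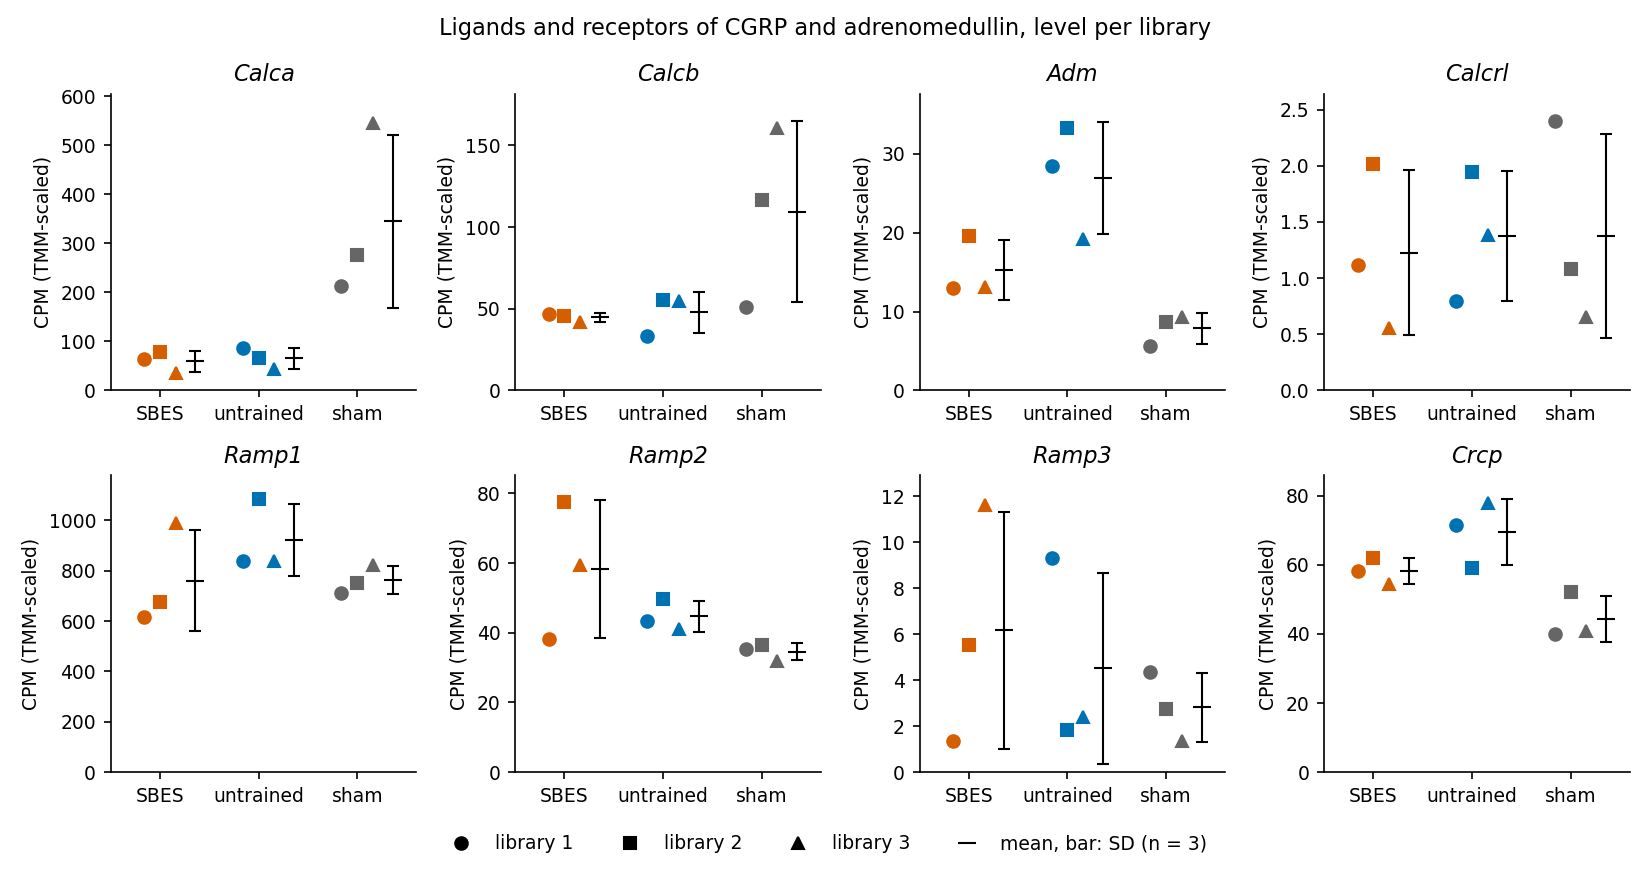
CPM of each gene in each library, with the mean and SD of 3 libraries to the right of the points. Calca stands at 35.9 to 87.3 CPM in SBES and untrained libraries and at 213 to 546 CPM in sham libraries, and Adm is highest in untrained libraries, at 19.2 to 33.2 CPM.

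Over the 15893 genes tested, edgeR called 0% in untrained against sham, where 698 genes had an unadjusted p under 0.05 and DESeq2 called 13. It called 0% in SBES against untrained, where 832 genes had an unadjusted p under 0.05 and DESeq2 called 27. In SBES against sham it called 0.359% of genes, 57 in number, with 44 higher and 13 lower, 1466 genes (9.22%) had an unadjusted p under 0.05, and DESeq2 called 276. Of the 6 genes other than Calca and Adm, edgeR called 0 in either comparison of the SBES group, and at an unadjusted p under 0.05 there were 0 between SBES and untrained libraries (5.24% of all genes), and 2, Calcb and Ramp2, between SBES and sham libraries (9.22% of all genes). The libraries of untrained and sham did not overlap for 5 of the 8 genes, Calca, Adm, Ramp1, Ramp2 and Crcp, beside 9.76% of all genes. They did not overlap in SBES against sham for 5 of the 8, Calca, Calcb, Adm, Ramp2 and Crcp, beside 13.8% of all genes. Calca and Adm are in both counts because of the values for which they were noted, so 3 of the other 6 genes remain in each, and these counts are given as a description. The libraries of SBES and untrained overlapped for all 8, and 10.4% of all genes had libraries that did not. The comparisons share libraries, so these counts do not support each other.

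**Figure D5:**
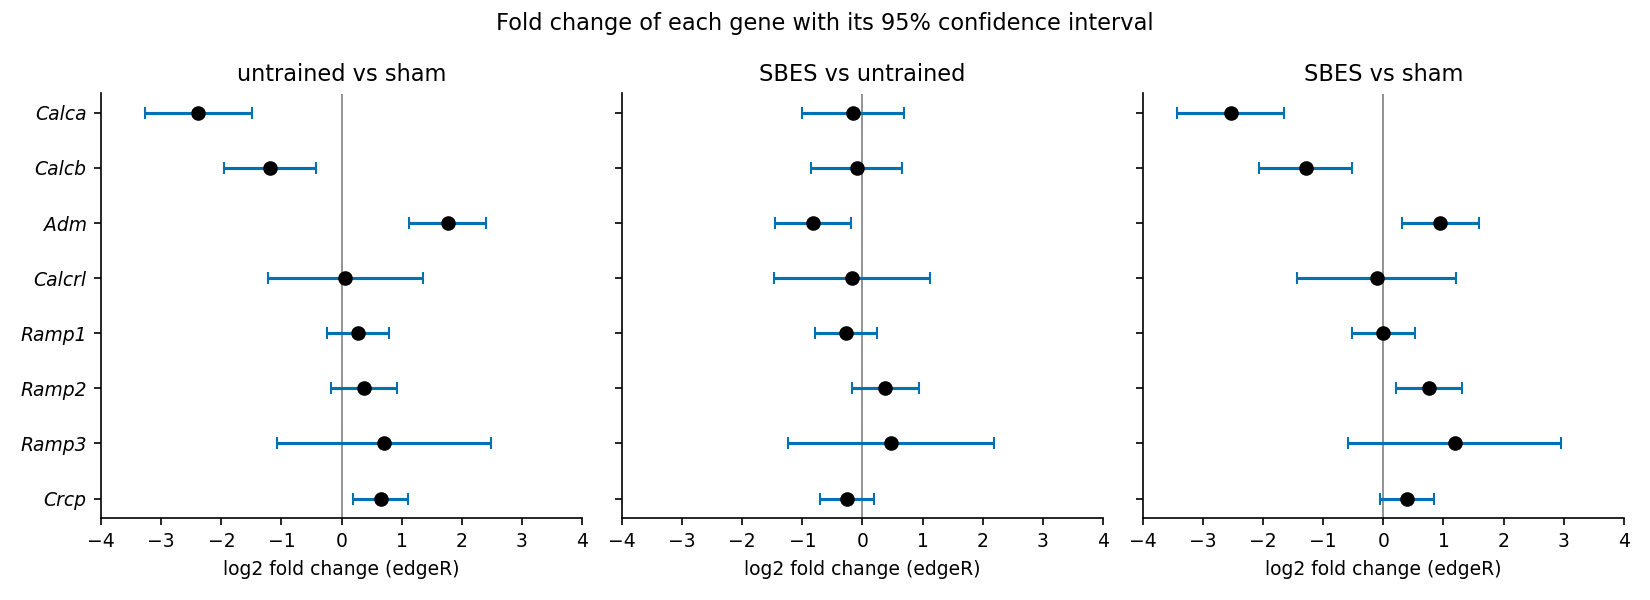
Log2 fold change of each gene with its 95% confidence interval from edgeR in the 3 comparisons. Values left of 0 are lower in the group named first. The intervals of Calca and Adm, and all those of untrained against sham, are a description and no test, because these values guided the choice of the genes. In the 2 comparisons with sham Calca lies at -2.39 and -2.54 and Adm at 1.76 and 0.94, and the intervals of Calcrl and Ramp3 are the widest.

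Among the other genes listed, edgeR called only Slc2a1 and Ddit4 of the hypoxia-inducible genes, both in SBES against sham. Of 5 relatives of the family, Ackr3, an atypical receptor that binds adrenomedullin, and Gpr182, a related endothelial receptor, passed the filter. Ackr3 averaged 16.2 ± 3.33 CPM in SBES, 13.2 ± 3.01 CPM in untrained and 11.7 ± 2.89 CPM in sham libraries (SD, n = 3 each), with a log2 fold change of 0.47 in SBES against sham (SE 0.28, adjusted p = 0.681). Gpr182 averaged 3.61 ± 2.48 CPM in SBES, 3.50 ± 1.16 CPM in untrained and 1.21 ± 0.518 CPM in sham libraries, with a log2 fold change of 1.57 in SBES against sham (SE 0.59, adjusted p = 0.402). Calcr, the calcitonin receptor, had at most 3 counts in any library.

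Peptides of this family are cut from precursors, amidated and stored in dense core vesicles. All 12 listed genes of these steps were tested, and edgeR called none of them in any comparison, with medians of 0.15 for untrained against sham, 0.11 for SBES against untrained and 0.17 for SBES against sham beside -0.01, 0.02 and -0.0018 for all genes. Cpe, the carboxypeptidase that trims peptide precursors, averaged 1914 ± 256 CPM in SBES, 1918 ± 906 CPM in untrained and 1417 ± 369 CPM in sham libraries (SD, n = 3 each). Of 7 peptidases that degrade neuropeptides, 6 were tested and edgeR called none, with medians of -0.01, 0.04 and -0.04 in the same order. Ece1, an endothelin-converting enzyme that also degrades CGRP inside endosomes, averaged 14.2 ± 3.36 CPM in SBES, 11.9 ± 3.87 CPM in untrained and 11.6 ± 2.07 CPM in sham libraries.

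Downstream of the receptor, all 26 listed genes of cyclic AMP signalling were tested and edgeR called none of them in any comparison. Their median log2 fold change was 0.01 for untrained against sham, 0.15 for SBES against untrained and 0.16 for SBES against sham. Prkar1a, the most abundant of them and a regulatory subunit of protein kinase A, averaged 688 ± 231 CPM in SBES, 785 ± 307 CPM in untrained and 781 ± 123 CPM in sham libraries (SD, n = 3 each).

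Adm belongs to the hypoxia-inducible genes, of which 18 others were listed and 17 tested. In untrained against sham 14 were positive, with a median log2 fold change of 0.37 beside -0.01 for all genes, and edgeR called none. Between SBES and untrained 12 were negative, with a median of -0.20, and edgeR called none. In SBES against sham the median was 0.15, and Slc2a1 and Ddit4 rose. Slc2a1, the glucose transporter of the blood-brain barrier, had 282, 291 and 510 CPM in SBES libraries, 227, 233 and 249 CPM in untrained libraries, and 101, 145 and 120 CPM in sham libraries, with a log2 fold change of 1.56 in SBES against sham (SE 0.26, adjusted p = 0.0292). Its SBES libraries stood above its untrained libraries, the reverse of the order seen for Adm. Ddit4, a stress-induced inhibitor of mTOR, averaged 31.4 ± 8.17 CPM in SBES, 10.1 ± 3.15 CPM in untrained and 6.07 ± 0.926 CPM in sham libraries (SD, n = 3 each), with a log2 fold change of 2.36 in SBES against sham (SE 0.30, adjusted p = 0.0117). Bnip3, a mitophagy receptor, followed the order of Adm instead, with 225, 197 and 176 CPM in SBES libraries, 279, 290 and 241 CPM in untrained libraries, and 155, 209 and 191 CPM in sham libraries. Its untrained libraries stood above all others, and SBES overlapped sham. Without sham library 3 edgeR called no gene of the whole table in SBES against sham, those of this list included.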

How the data were processed

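Per the labels' protocols, the authors aligned paired-end reads with Hisat2 2.0.1 and counted genes with HTSeq 0.6.1. The submitters' processing notes name mm10 as the build, and whether counting used strand is not stated. Per gene and library, the authors deposited whole-number counts. Beside them the authors deposited FPKM, which are counts per exonic length and library total, and recomputing it matched 100% of the values within 0.006. Columns were matched by name for 5 libraries and by elimination for 4, the untrained libraries and SBES 1.

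Counts of all 9 libraries entered 1 quasi-likelihood fit in edgeR 4.0.16 (R 4.3.3) with 1 coefficient for each group. TMM scaling was used, filterByExpr left 15893 genes with over 99% of the counts, and a gene was called at an adjusted p (Benjamini-Hochberg) under 0.05. PCR copies were counted as reads. DESeq2 1.42.0, limma 3.58.1 on log2(FPKM + 1) and log2(FPKM + 0.1), other scalings and filters, a replicate block, a fit of the libraries numbered 2 and 3 and leaving out each library were alternatives.

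The 8 genes and the gene lists were chosen with earlier results of these data known. Named from each pathway list are genes among its 3 highest by mean FPKM and any called gene, and for Calca, Adm, Calcrl and Ramp1 the 5 genes most correlated over the libraries. Cell type markers are named where they define the type, and Uts2b was named after its values were seen.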

Additional observations from a re-analysis of the deposited data

How the results depend on the processing

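Calca kept its direction in untrained against sham and in SBES against sham, and Adm in all 3 comparisons, under each of 20 alternatives. Calca in SBES against untrained, near 0, kept its sign in 17 of 20 and ran from -0.60 to 0.11. Divided by the summed motor neuron markers, the value of Calca in untrained against sham was -1.59, and divided by the summed endothelium markers that of Adm was 1.16 in untrained against sham and 0.13 in SBES against sham. In SBES against untrained, where edgeR called 0 genes, DESeq2 called 27, a fit with no filter 111, the fit of the 6 libraries numbered 2 and 3 called 17 and limma with a pseudocount of 1 called 1, and leaving out a library gave 0 to 1. In SBES against sham, with 57 genes called, DESeq2 called 276, the fit with no filter 427, the 6-library fit 583, limma 28 with a pseudocount of 1 and 25 with 0.1, and leaving out a library gave 0 (without sham 3) to 85 (without untrained 1). Of the 6 genes tested, 0 were called in SBES against sham, DESeq2 and the fit with no filter called 1 each, Calcb, and the 6-library fit called 3, Calcb, Ramp2 and Ramp3. Leaving out a library gave 0 to 1. The cause was not tested.

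Some signs turned. In SBES against untrained, leaving out a library gave log2 fold changes from -0.33 to 0.0248 for Calcb, from -0.77 to 0.20 for Calcrl and from -0.35 to 1.55 for Ramp3. For SBES against sham, Calcrl was 0.56 in the 6-library fit and ran from -0.71 to 0.52 with a library left out. Ramp1 was 0.012 with DESeq2, 0.014 with RLE scaling, 0.0225 with no filter, 0.0179 with only the 2 groups compared, 0.0906 in the 6-library fit, and ran from -0.24 to 0.16 with a library left out.

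Replicate numbers are shared by the groups. Correlations of the deviations ran from -0.17 to 0.44 for same-numbered libraries of different groups, and from -0.42 to 0.34 for those of different number. The ranges overlapped, and the number was not taken as a pairing in the main fit. Whether libraries of the same number share a batch was not tested. With the replicate block edgeR called 4 genes between SBES and untrained and 139 between SBES and sham, and 0 of the 6 genes tested in either. Depth was lowest for Calcrl and Ramp3, with 9 to 35 and 12 to 188 counts per library.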

Other observations

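Other neuropeptides that motor neurons or their neighbours can express were listed with Calca. All 10 were tested and edgeR called none of them in any comparison. In untrained against sham 7 of 10 had a positive log2 fold change, with a median of 0.68, in SBES against untrained 9 of 10 were negative, with a median of -0.35, and in SBES against sham 7 of 10 were positive, with a median of 0.22. Uts2b, which encodes a peptide related to urotensin II and was singled out after its values were seen, had 0.446, 3.12 and 0.928 CPM in SBES libraries, 0.595, 7.18 and 3.86 CPM in untrained libraries, and 9.91, 34.5 and 28.7 CPM in sham libraries. All libraries from injured mice stood below all sham libraries. Its log2 fold change was the lowest of the list, at -2.65 (SE 0.84, adjusted p = 1.000) in untrained against sham and -3.97 (SE 0.92, adjusted p = 0.147) in SBES against sham, and edgeR called neither. Sst, the somatostatin gene, and Penk, the enkephalin precursor, spread widely within the untrained and sham groups and less within SBES. Sst averaged 228 ± 24.3 CPM in SBES, 439 ± 530 CPM in untrained and 304 ± 316 CPM in sham libraries. Penk averaged 552 ± 129 CPM in SBES, 757 ± 780 CPM in untrained and 395 ± 244 CPM in sham libraries (SD, n = 3 each).

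The genes whose level most resembled that of Calca over the 9 libraries, by Pearson's r of log2(CPM + 1) among 4826 candidates, were Ankrd34a (0.90), Lamp5 (0.87), Slc2a6 (0.87), Them4 (0.87) and Tmeff2 (0.84). Those most like Adm were Bsg (0.91), Hdac1 (0.89), Rnf113a2 (0.89), Bnip3 (0.86) and Aldh6a1 (0.84). Those most like Calcrl were Snhg6 (0.82), Churc1 (0.79), Cx3cr1 (0.78), Rdx (0.72) and Actr2 (0.72), and those most like Ramp1 were Rhoc (0.88), Imp4 (0.87), Hsd17b4 (0.85), Acadl (0.84) and Egfl7 (0.83). These values describe libraries that also share depth and cell content, and for each of the 4 genes 0 of the 5 were among the 5 most alike when only the libraries numbered 2 and 3 were used.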
